A study of Mus musculus with 2 samples.

Results

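Mucins, trefoil peptides, AGR2 and the factors that go with them make up the secretory program of wet epithelia, and 10 genes of that program were followed here in the embryonic mouse ureter. They are Agr2, Agr3, Muc1, Muc4, Muc16, Muc20, Tff2, Tff3, Spdef and Pigr, out of 29982 genes on the arrays. RNA of ureters from NMRI embryos at E16.5 was compared between Pparg-cKO embryos (Pax2-cre/+; Pparg(fl/fl)) and controls (Pparg(fl/?)), which carried at least 1 floxed allele, the other not being named in the labels. Pparg encodes a nuclear receptor that works together with RXR partners, and Pax2-cre recombines in the nephric duct and its derivatives, that is in the ureteric epithelium and collecting ducts but not in the ureteric mesenchyme. Array 1 carried 1 pool of each genotype from females and array 2 carried 1 pool of each genotype from males, on 2-colour oligonucleotide arrays with the dyes exchanged. The second channel is labelled E14.5 in the stage field, against E16.5 in titles and protocol. Whole ureters were pooled, so fewer cells of a type and less RNA per cell cannot be told apart.

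Secretory epithelial cells build mucins in the endoplasmic reticulum, where AGR2, a protein disulfide isomerase, handles their cysteine-rich domains, and then decorate them with O-linked sugars in the Golgi. Gel-forming mucins are released with trefoil peptides, whereas transmembrane mucins such as MUC1, MUC4, MUC16 and MUC20 stay on the apical membrane. The urothelium is not a goblet cell epithelium, but its luminal surface carries transmembrane mucins, and PIGR moves polymeric immunoglobulins across several mucosae.

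The direction of the ratios needs a statement first. RNA A is the RNA in the red dye (AlexaFluor647) on array 1 and in the green dye (AlexaFluor555) on array 2. RNA B is the other RNA. The labels make RNA A the control, while the study's own reading of the deposited table makes it the Pparg-cKO. Each log2 ratio sets RNA A against RNA B, positive where RNA A gave the brighter signal, and no genotype is attached to either RNA. RNA B was on both arrays the brighter RNA for uroplakins and Krt20, markers of superficial urothelium (6 of 6 genes, median log2 ratio -1.01). Pparg itself read 11295 (RNA A) against 7430 (RNA B) on array 1 and 12888 against 7872 on array 2, which is 0.66 ± 0.08 as the average log2 ratio (n = 2 arrays, SD). Its probe was not placed relative to the floxed exons, so it does not settle the direction. Xist read 1980 and 1651 on array 1 but 3.06 and 2.43 on array 2, and Ddx3y, on the Y chromosome, read 10.9 and 16.7 against 4794 and 4396, so the sexes of both arrays matched their labels. All 157716 probe spots per array were unsaturated.

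The 10 genes had 13 probes of 60 bases. 9 genes were found under their own name, and Muc16 was found through the accessions of a probe that the files name by an Ensembl transcript. Muc4, Muc20 and Pigr had 2 probes each. Probe positions are those of the files (mm9), and exon or UTR annotation of that build was not used here. The first 30 bases of the probes on which the results turn are shown in lower case, 5′ to 3′, since the probe sequence decides which transcript each value stands for.

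Agr2, chr12:36730506-36730565, plus strand: gtcaggagaccagaaggcagaagcactgtg
Agr3, chr12:36676159-36676218, plus strand: gaagaggtcaaacatgtggtacaaacatct
Muc20, brighter probe, chr16:32786143-32786202, minus strand: gctgacctcttttcagagatgtccctcaca
Muc20, dimmer probe, chr16:32777512-32777571, minus strand: cccagccgctttatttcctgaaataacaac
Muc16, chr9:18299899-18299958, minus strand: taccttccagtgatggctcttccctagcag
Pigr, brighter probe, chr19:5932558-5932617, minus strand: gaggaggaggaggagaaggagaaggagaag
Pigr, dimmer probe, chr1:132748041-132748100, plus strand: tcatgattttcagatgagaagagatgtttc

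The brighter Pigr probe stands out by its sequence. All 60 of its bases are G or A, the files place it on chromosome 19, and its accessions lead to Pigr, Rhox8 and Zfp811. It shares a run of 15 bases with 82 of the other probes on the array, whereas the Agr2, Agr3 and Muc16 probes share such a run with 0 and the dimmer Pigr probe with 1. 23 of 39429 probes on the array consist of G and A alone. Its values are therefore given as those of a repeat-like probe and not as those of Pigr.

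Agr2 was brighter in RNA A by about the same factor on both arrays. AGR2 is the disulfide isomerase that intestinal goblet cells need to make mucin. For Agr2, array 1 read 627 (RNA A) against 280 (RNA B), and array 2 read 705 against 360. The spots, which are repeats of 1 probe on each array, did not overlap between the RNAs. On array 1 the 3 kept spots spanned 605 to 639 (RNA A) and 272 to 291 (RNA B). On array 2 the 4 spots spanned 662 to 738 and 352 to 366. The log2 ratios were 1.16 and 0.97, a mean of 1.07 ± 0.13 (n = 2 arrays, SD) or 2.09-fold, and the spread of the ratio among spots was 0.06 (SD) on either array. 1 of the 4 spots on array 1 was flagged as an outlier and left out. The spots of the brighter Muc20 probe separated in the same way, at less than 1.5-fold. The share of all probes that do so was not counted.

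The study's methods filtered on intensity and fold change, at thresholds of 100 and 1.5. Taken here to mean that both arrays shift the same way by 1.5-fold or more and that the brighter RNA reaches a signal of 100 on each, this filter passed 1 of the 10 members, Agr2, in the direction of RNA A and 0 in the direction of RNA B. Over all genes it passed 47 of 29982 (0.157%) in the direction of RNA A and 69 (0.230%) in the direction of RNA B. The 10 genes were chosen by their function and with these 2 ratios known, so the counts describe them and carry no test. 8 members were among the genes fitted by limma, and for the same reason no p is given for them. Among members that reach a signal of 100, the one next outside the filter was Muc20, described further on.

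**Figure D1:**
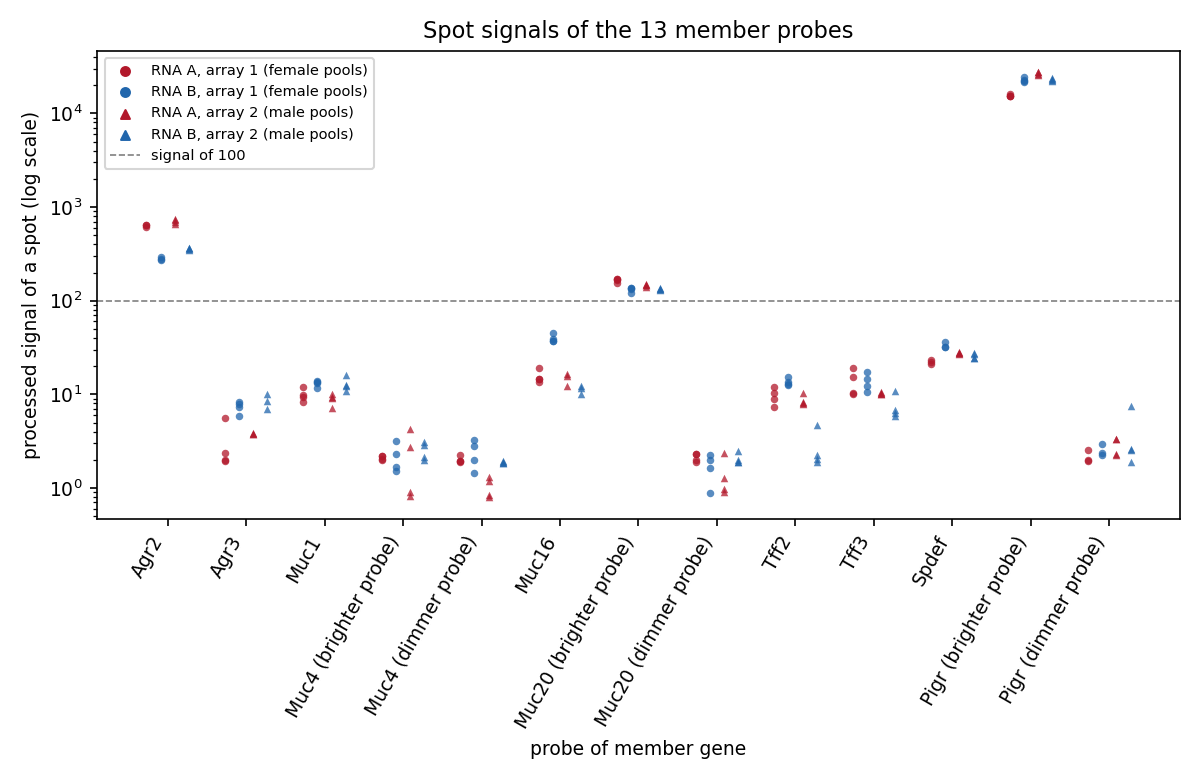
Processed signal of every kept spot (log scale) for the 13 probes, with RNA A in red, RNA B in blue, array 1 as circles and array 2 as triangles. The dashed line marks a signal of 100. The spots of Agr2 in RNA A (605 to 738) lie above all of its spots in RNA B (272 to 366). In the brighter Muc20 probe RNA A (141 to 171) also lies above RNA B (121 to 137), by a smaller step. The spots are repeats of 1 probe, and the share of all probes that separate in this way was not counted. Levels of different probes are not comparable.

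Agr3, the neighbouring paralogue of Agr2, was at the edge of detection. It read 2.67 (RNA A) against 7.29 (RNA B) on array 1 and 3.79 against 8.44 on array 2, giving log2 ratios of -1.45 and -1.16 and a mean of -1.30 ± 0.21 (n = 2 arrays, SD). RNA A was not well above background on either array, and RNA B was so on 1 of 2, with 4 of 4 spots on array 1 and 1 of 3 on array 2. The ratio on array 2 therefore sets 2 values near background against each other, and no direction is drawn from it. With normexp background correction and loess the mean log2 ratio was -0.32, and the authors' deposited table lists Agr3 without a change on either array.

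The transmembrane mucins were low or level. MUC20, a mucin of the kidney that binds the MET receptor, read 165 (RNA A) against 132 (RNA B) on array 1 and 147 against 133 on array 2 with its brighter probe, log2 ratios of 0.33 and 0.14 and a mean of 0.23 ± 0.13 (n = 2 arrays, SD). All 4 channels were well above background, RNA A was the brighter on both arrays, and neither ratio reached 1.5-fold. Its second probe was not well above background in any channel. The second Muc20 probe lies between the Muc4 probes, and Muc4 and Muc20 are overlapping neighbours on opposite strands in the RefSeq listing. Both Muc4 probes were likewise not well above background in any channel, so the data hold no measured level of MUC4, a partner of ERBB2, in either RNA.

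Muc1, which encodes the mucin of most simple epithelia, was dim, and its ratio had the same sign on both arrays. It read 9.83 (RNA A) against 13.1 (RNA B) on array 1 and 8.87 against 12.8 on array 2. The log2 ratios were -0.42 and -0.53, with a mean of -0.47 ± 0.08 (n = 2 arrays, SD). The ranges of the spots overlapped on array 1 (RNA A up to 12.1, RNA B from 11.7) and not on array 2 (RNA A up to 10.2, RNA B from 10.9). RNA A was well above background in 1 of 4 spots on array 1 and in 4 of 4 on array 2. The mean log2 ratio was -0.17 with normexp and loess, and no direction is drawn from these dim signals.

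Muc16 took opposite directions on the arrays. MUC16 is a very large membrane mucin of the ocular, airway and reproductive surfaces. It read 15.3 (RNA A) against 39.5 (RNA B) on array 1 and 14.7 against 11.3 on array 2, with all 4 channels well above background. The log2 ratios were -1.37 and 0.39. On array 1 the spots spanned 13.4 to 18.9 for RNA A and 37.1 to 45.1 for RNA B. On array 2 the highest RNA B spot was at 12.2 and the lowest RNA A spot at 12.4. The SD of the ratio over the arrays was 1.24, larger than the mean of -0.49. The pools, their sex and the dye of each RNA all switch from array 1 to array 2, so they cannot be told apart.

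The trefoil peptides, small secreted proteins that act on mucus and on epithelial repair, were dim. Tff2 read 9.48 (RNA A) against 13.6 (RNA B) on array 1 and 8.57 against 2.53 on array 2, log2 ratios of -0.52 and 1.76. The low value of RNA B on array 2 rests on spots of which 3 of 4 carried a surrogate signal, the value the scanner software puts in place of one too near background. Tff3 read 13.1 against 13.5 on array 1 and 10.3 against 7.27 on array 2, log2 ratios of -0.04 and 0.50. For both genes the mean ratio was smaller than its SD over the arrays (0.62 ± 1.61 for Tff2 and 0.23 ± 0.38 for Tff3, n = 2 arrays).

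Spdef, an ETS factor that drives goblet cell maturation, was well above background in all 4 channels. It read 22.2 (RNA A) against 33.4 (RNA B) on array 1 and 27.6 against 25.7 on array 2. The log2 ratios were -0.59 and 0.10, a mean of -0.24 ± 0.49 (n = 2 arrays, SD), so array 1 alone reached 1.5-fold. Pigr encodes the receptor that carries IgA through epithelial cells. Its dimmer probe, at the gene's own chromosome, was not well above background in any channel, with signals between 2.13 and 3.11. The repeat-like probe gave 15546 (RNA A) against 22699 (RNA B) on array 1 and 26715 against 23057 on array 2, log2 ratios of -0.55 and 0.21.

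**Figure D2:**
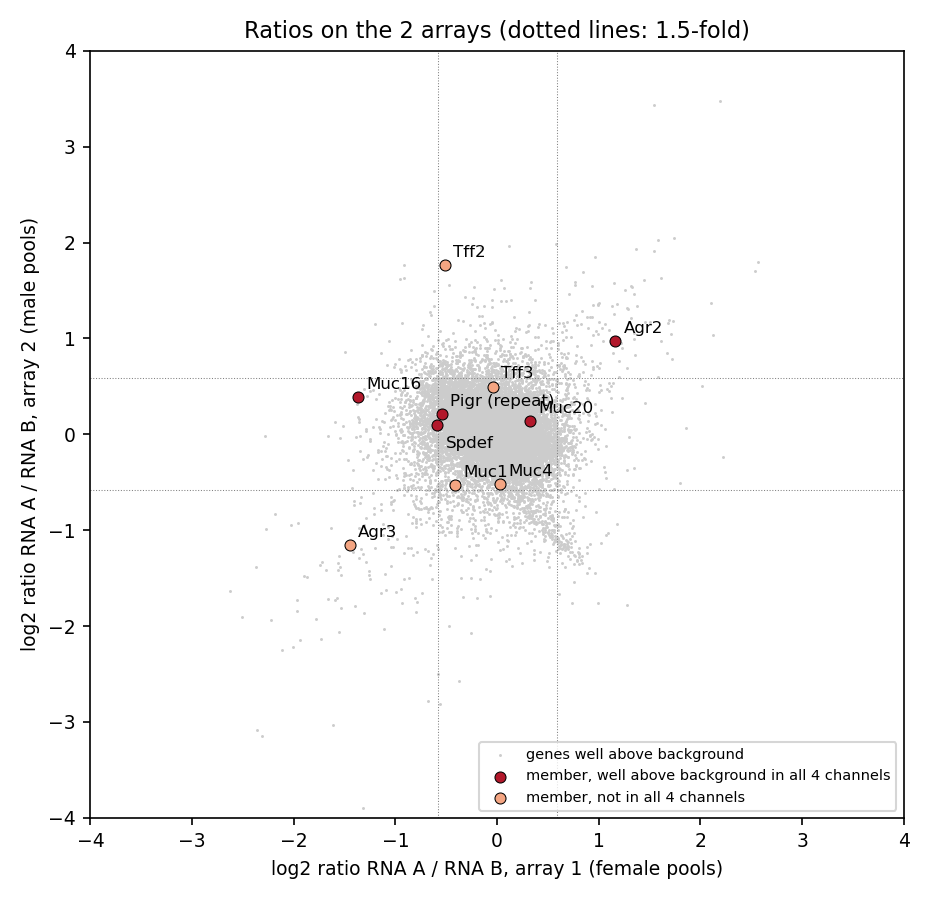
Log2 ratio of RNA A over RNA B on array 1 (female pools, x axis) against array 2 (male pools, y axis) for 21429 genes well above background in the same RNA on both arrays (grey) and the 10 members by their brighter probe (dark red, well above background in all 4 channels; pale, not in all 4). Dotted lines mark 1.5-fold. 2 genes lie outside the axes. Agr2 lies in the upper right at 1.16 and 0.97, Agr3 in the lower left at -1.45 and -1.16, and Muc16 and Tff2 lie where the arrays oppose each other.

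Of the 13 probes, 5 were well above background in all 4 channels (Agr2, the brighter Muc20 probe, Muc16, Spdef and the repeat-like Pigr probe), 4 in some channels (Agr3, Muc1, Tff2 and Tff3) and 4 in none (both Muc4 probes and the dimmer probes of Muc20 and Pigr). Of the 5, Agr2 and Muc20 had the same sign on both arrays and the other 3 did not. The share of all genes with opposite signs was not counted. The brighter RNA reached a signal of 100 on each array for 3 members, Agr2, Muc20 and Pigr, the last by its repeat-like probe.

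**Figure D3:**
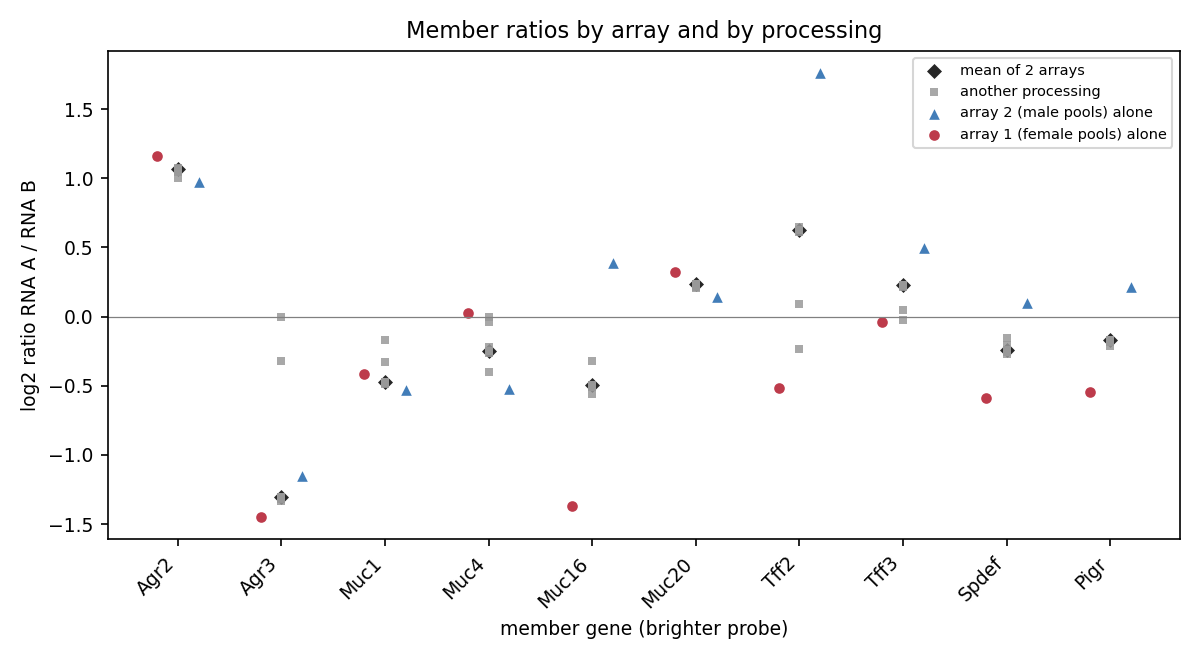
Log2 ratio of RNA A over RNA B for each member (x axis) as the mean of both arrays (diamond), on each array alone (circle, array 1; triangle, array 2) and as a mean under the other ways of processing (grey squares). Agr2 stays between 0.97 and 1.16 in all of them, whereas the values of Agr3 spread from -1.45 to 0 and those of Tff2 from -0.52 to 1.76.

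Agr2 and Agr3 are neighbours on chromosome 12, and the genes around them were read for the same region. They were singled out after their values were seen, as all genes with a probe within 350000 bases of the Agr2 probe. Tspan13, a tetraspanin gene with the next probe downstream, read 6062 (RNA A) against 6585 (RNA B) on array 1 and 7334 against 5946 on array 2, with an average log2 ratio of 0.09 ± 0.30 (n = 2 arrays, SD). Bzw2 was at -0.06 ± 0.27 and Ankmy2 at 0.07 ± 0.19. Sostdc1, a secreted antagonist of BMP and WNT signals, had log2 ratios of 0.67 and 0.11. None of these neighbours passed the filter. Gm5434 and Lrrc72 were not well above background.

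The promoter of Agr2 is given as the 250 bases before its RefSeq start (GRCm38.p6, chr12:35992675-35992924, plus strand), since Agr2 is the member past the filter: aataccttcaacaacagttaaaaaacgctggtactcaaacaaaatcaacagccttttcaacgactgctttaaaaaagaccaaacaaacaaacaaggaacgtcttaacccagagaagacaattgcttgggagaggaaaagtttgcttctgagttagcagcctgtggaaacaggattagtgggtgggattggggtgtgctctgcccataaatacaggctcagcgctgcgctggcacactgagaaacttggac. 8 of the 10 members had a promoter entry of 300 bases, with 250 before and 50 after the start. The paired nuclear receptor motif AGGTCANAGGTCA, searched on both strands, was in 0 of these 8 and in 13 of 32851 promoters (0.0396%). The single repeat AGGTCA, which every match of the longer motif contains, was in 1 member, Agr3, at base 19 after the start, and in 16.3% of all promoters. A forkhead motif, searched as the exact string TGTTTAC alone, was in 1 member, Muc20, and in 3.65% of all promoters. None of the 3 strings was in the Agr2 window, which says nothing of other forms of these motifs or of more distant sites.

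The genes whose pair of ratios lay nearest to that of Agr2 were Lypd10, Fgfbp1 and Kcnj16, at Euclidean distances of 0.21, 0.22 and 0.24 on the log2 scale over 2 arrays, among 15005 genes whose brighter RNA reached a signal of 100 on each array. Lypd10 had log2 ratios of 1.20 and 0.76. Fgfbp1, a secreted carrier of fibroblast growth factors, had 0.95 and 1.04. Kcnj16, a potassium channel gene of kidney tubules, had 0.93 on both arrays.

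The rest of the pathway was read from 6 lists with 131 genes on the arrays besides the members, of which 106 were well above background in the same RNA on both arrays. The filter passed 3 of the 131 in the direction of RNA A and 0 in the direction of RNA B, against 0.157% and 0.230% of all genes. The median log2 ratio of the 106 was 0.02, beside 0.01 over all 21429 such genes. limma with Benjamini-Hochberg adjustment over these 21429 genes called 27 (0.126%) in the direction of RNA A and 40 (0.187%) in that of RNA B, and among the listed genes 1 and 1. At an unadjusted p under 0.05, limma had 12 of the 106 listed genes (11.3%) and 810 of all 21429 (3.78%), a share from which nothing is read because the lists were compiled with some of these ratios known.

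The other mucins showed no common shift. 11 of 15 were well above background, none passed the filter or limma, and the median log2 ratio was -0.19, with 2 on the side of RNA A and 5 on the side of RNA B on both arrays. The gel-forming mucins of goblet cells were dim in all channels: Muc2 read 6.83 to 14.6, Muc5ac 12.8 to 16.2 and Muc5b 7.85 to 12.6. Among those with a signal of at least 100, Mcam, a cell adhesion gene of vessels and smooth muscle, had log2 ratios of 0.15 and -0.63, and Ovgp1, the oviductal glycoprotein, had -0.36 and -0.08.

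The enzymes of mucin O-glycosylation were level, with 20 of 24 well above background, none past the filter or limma and a median log2 ratio of -0.00. St6galnac2, a sialyltransferase that caps O-linked N-acetylgalactosamine, read 832 (RNA A) against 1580 (RNA B) on array 1 and 907 against 1266 on array 2, log2 ratios of -0.92 and -0.48 (limma adjusted p = 0.614). RNA B was the brighter on both arrays. C1galt1, which builds the core 1 structure, had log2 ratios of 0.05 and -0.43.

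The list nearest to the work of AGR2 was that of disulfide isomerases and other folding factors of the endoplasmic reticulum. 29 of 30 were well above background, none passed the filter or limma, and the median log2 ratio was 0.03. The summed signal of the list was 203599 (RNA A) against 203996 (RNA B) on array 1 and 213307 against 212972 on array 2. Such a sum is weighted by the brightest probes and compares the RNAs only, not the lists. Xbp1, a transcription factor of the secretory stress response, had log2 ratios of -0.10 and 0.18. By the mean of both arrays, the ratios farthest from 0 at a signal of at least 100 were those of Ddit3 (mean 0.21, from 0.35 and 0.07) and Creb3l4 (mean 0.18, from 0.27 and 0.08), both transcription factors tied to stress of the endoplasmic reticulum.

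The goblet and club cell program had 17 of 27 genes well above background and a median log2 ratio of 0.10, with none past the filter or limma. Atoh1, Foxa2, Retnlb, Zg16, Tff1, Scgb3a1 and Scgb3a2 were among the 10 that were not well above background. Elf3, an epithelial ETS factor, read 384 (RNA A) against 626 (RNA B) on array 1 and 538 against 621 on array 2, log2 ratios of -0.71 and -0.21. Foxa1, a forkhead factor of endodermal and urothelial cells, had -0.63 and 0.20. Bpifb1, a secreted lipid-binding protein of airway mucus named after its values were seen, read 50.0 against 98.9 on array 1 and 50.5 against 107.7 on array 2, just short of the signal threshold on the first array (log2 ratios of -0.98 and -1.09, limma adjusted p = 0.116).

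The genes of mucosal defence and IgA transport held all 3 listed genes past the filter. The list was compiled with Spink8, Sfta2 and Fgfbp1 already known to move with Agr2, so their number is no independent evidence. Fgfbp1 read 214 (RNA A) against 111 (RNA B) on array 1 and 223 against 109 on array 2. Sfta2, a small secreted protein related to lung surfactant, read 277 against 163 on array 1 and 338 against 148 on array 2, log2 ratios of 0.76 and 1.19. Spink8, a Kazal-type protease inhibitor, read 442 against 277 on array 1 and 415 against 206 on array 2, log2 ratios of 0.68 and 1.01. In all 3, RNA A was the brighter on both arrays, and limma did not call them (adjusted p = 0.137, 0.193 and 0.314).

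limma called 2 listed genes, both of this list and both below the signal threshold of the filter. Defb1, a beta-defensin of urogenital epithelia, read 99.0 (RNA A) against 16.8 (RNA B) on array 1 and 25.8 against 7.41 on array 2, with an average log2 ratio of 2.18 ± 0.54 (n = 2 arrays, SD; limma adjusted p = 0.0138). Reg3g, an antimicrobial lectin of the gut, read 6.99 against 17.4 on array 1 and 6.45 against 15.4 on array 2, with an average log2 ratio of -1.29 ± 0.05 (n = 2 arrays, SD; limma adjusted p = 0.0465). They were called in opposite directions. Over the other settings of the fit, limma called 0 or 1 of the listed genes, and where it called 1 this was Defb1. 17 of 21 genes of the list were well above background, with a median log2 ratio of 0.15.

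The partners of trefoil peptides, AGR2 and MUC1 had 12 of 14 genes well above background, none past the filter or limma and a median log2 ratio of -0.06. Lypd3, a GPI-anchored surface protein described as a receptor of AGR2, read 697 (RNA A) against 466 (RNA B) on array 1 and 842 against 616 on array 2, log2 ratios of 0.58 and 0.45. RNA A was the brighter on both arrays, and each ratio lay short of 1.5-fold. Itln1, an intestinal lectin, had log2 ratios of -0.26 and -0.54.

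**Figure D4:**
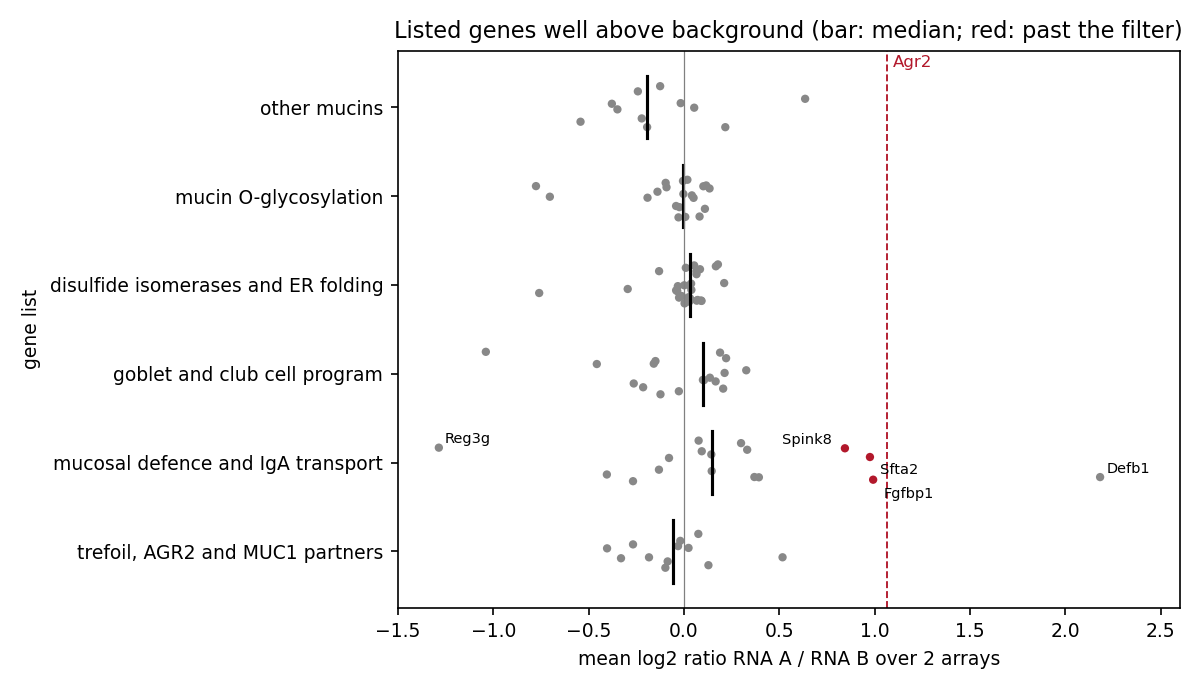
Mean log2 ratio of RNA A over RNA B (2 arrays, x axis) of the genes well above background in each of 6 lists, 1 point per gene, with the list median as a black bar. Red points passed the filter, named grey points were called by limma, and the dashed line marks Agr2 at 1.07. The list medians lie between -0.19 and 0.15, with Spink8, Sfta2 and Fgfbp1 close to Agr2.

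Markers of cell types in the pools were read beside the members. Their summed signals too are weighted by the brightest probes. The summed signal of superficial urothelium markers was 50739 (RNA A) against 82481 (RNA B) on array 1 and 49171 against 86415 on array 2, opposite to Agr2. Upk3a held the largest part of this sum. Of the 6 genes 4 passed the filter, and limma called Upk3b and Upk1a (adjusted p = 0.0201 and 0.0451), all in the direction of RNA B. The general epithelial markers (Epcam, Cdh1, keratins and claudins) summed to 61004 against 89107 on array 1 and 78100 against 83460 on array 2. None of these 7 genes passed the filter or limma, 2 of them, Krt8 and Krt18, lay on the side of RNA B on each array, the other 5 changed sign between the arrays, and the median log2 ratio was -0.22. Of 5 collecting duct markers 4 were well above background, Avpr2 was not, and they summed to 1159 against 979 on array 1 and 1099 against 688 on array 2. This sum turned on Fxyd4, which passed the filter with log2 ratios of 0.77 and 1.56. Without Fxyd4 the sums were 468 against 573 and 415 against 455, on the side of RNA B, Scnn1b had log2 ratios of -0.42 and -0.23, and the median over the 4 genes with Fxyd4 was 0.11. Of the smooth muscle and mesenchymal markers 5 of 5 were well above background, 4 of them brighter in RNA B on both arrays (median log2 ratio -0.56), and none passed the filter or limma. Of the basal urothelium markers, 3 of 4 were on the side of RNA A on both arrays (median 0.44), and none passed the filter or limma. 3 of 5 nephron markers were well above background, Umod and Slc12a1 were not, and the median log2 ratio of the 3 was -1.15.

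Among tissues in which Agr2 and mucins are abundant, the intestinal markers had 4 of 5 genes well above background, with Cdx2 not, and summed to 272 (RNA A) against 379 (RNA B) on array 1 and 318 against 368 on array 2. Lgals4 made up most of this sum, at 217 against 312 on array 1 and 263 against 310 on array 2. The oviduct markers, of which Wnt7a was not well above background, summed to 578 against 587 on array 1 and 556 against 560 on array 2. The macrophage markers, 4 of 4 well above background, summed to 4678 against 3828 on array 1 and 4679 against 4245 on array 2, with the higher sum in RNA A on both. The plasma cell markers had a median log2 ratio of 0.03 over 3 genes, with Mzb1 at 0.84 and 0.65, and the endothelial markers one of 0.04 over 4. None of the intestinal, oviduct, macrophage, plasma cell or endothelial markers passed the filter or limma. The part of these cells in the member values was not tested.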

How the data were processed

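Ureter RNA of 2 Pparg-cKO and 2 control pools was read on 2 dual-colour arrays. Per the file headers, the processed intensities deposited for each spot come from Agilent Feature Extraction 10.7.3.1, by background subtraction, surrogate values near background and dye normalisation within each array. The signed fold changes in the authors' deposited table were used as an alternative. Their direction is not stated, and as log2 values they correlated with the scanner ratios at r = 0.997 on both arrays. The deposited mean and background intensities served the normexp alternative.

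Control spots and outlier-flagged spots (5705 and 5579) were left out, log2 signals were averaged per probe, and each gene took its brightest probe (average log2 over the 4 channels). Well above background means that the flag was set in at least 0.5 of a probe's kept spots. limma 3.58.1 (R 4.3.3) was fitted to 21429 genes with Benjamini-Hochberg adjustment at 0.05. RefSeq (GRCm38.p6) gave names for 28328 of 39429 probes. The alternatives concerned background correction, normalisation, centring, thresholds, probes, flags and leaving out an array. Named are all members, listed genes past the filter, the 2 largest ratios per list at a signal of at least 100, the 3 genes nearest to Agr2, Pparg, Xist, Ddx3y and markers. Other genes were named after their values were seen. The members and lists were chosen with earlier results of these data known. Replicates are single pools, so the SD over 2 arrays joins sex, dye and pool. With 2 arrays on 1 slide and in 1 scan, precision is limited by their number.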

Additional observations from a re-analysis of the deposited data

Results flagged for a closer look

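In 3 probes with all 4 channels well above background, the female array and the male array gave opposite signs of the log2 ratio of RNA A over RNA B. They were -1.37 and 0.39 for Muc16, -0.59 and 0.10 for Spdef, and -0.55 and 0.21 for the repeat-like probe listed under Pigr. How far the arrays differ was not tested, and the share of all genes with opposite signs was not counted. With 1 array per sex, other pools on each and the dyes exchanged between them, sex, dye and pool cannot be told apart.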

How the results depend on the processing

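Agr2 was past the filter under 10 of the 11 alternatives tried for the member count, among them centring, both loess settings, the authors' deposited table and either array alone. A threshold of 2-fold left 0 members and 0 listed genes brighter in RNA A, since the ratio of Agr2 on array 2 was 1.96-fold. No alternative put a member past the filter in the direction of RNA B. Of the listed genes, 3 to 5 (RNA A) and 2 to 4 (RNA B) passed when each replicate was left out in turn. A signal of 50 gave 1 and the well-above-background rule gave 3 listed genes brighter in RNA B. limma called 2 listed genes, and 0 with normexp and loess, 0 with median centring, 0 with no filter on dim probes, 1 with loess on the processed signals and 1 with an intensity trend. The mean ratio of Agr2 stayed between 0.97 and 1.16 over 9 alternatives, 1 of which (spots with background flags left out) was chosen after seeing the data. That of Tff2 was -0.24 in the deposited table and -0.52 on array 1 alone. Dim probes depend on the background step. Each ratio already pairs the pools of an array, and limma fitted the mean of these ratios over the 2 arrays with no further pairing.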
